A study of Mus musculus with 8 samples.

Results

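The unfolded protein and amino acid stress genes described here are 38 genes, listed by gene symbol and matched to the gene name column of the array files. They comprise 14 chaperones and folding enzymes of the endoplasmic reticulum (ER), 6 factors of ER-associated degradation, 5 stress sensors and transcription factors, 6 stress targets of ATF4 and CHOP, and 7 genes of amino acid synthesis, one-carbon metabolism and amino acid transport. All 38 were found among the 36163 gene names of the array and were well above background on all 8 arrays, so that none was lost among the 24464 genes tested. The list is one of gene names and uses no measured value, but it was drawn up with earlier results of these data known.

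RNA from whole lungs of C57BL/6 mice was measured on single-colour Agilent arrays, 1 array per mouse. The first group was 4 mice that lacked Ggps1, labelled GGPPS1 knockout and described as lung specific. The other was 4 wild-type mice. Every mouse in both groups had received lipopolysaccharide (LPS), a bacterial cell wall component that inflames the lung, for 12 h, and lungs without LPS were not analysed here, so each difference is one between LPS-treated lungs. The enzyme that Ggps1 encodes produces geranylgeranyl diphosphate, a lipid attached to certain small GTPases for their hold on membranes. The age of the mice, the Cre driver and the part of Ggps1 removed were not given in the sources used here.

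Unfolded proteins in the ER are sensed by the membrane proteins ATF6, IRE1 (Ern1) and PERK (Eif2ak3). ATF6 and the spliced form of XBP1 made through IRE1 switch on ER chaperones and degradation factors, whereas PERK phosphorylates eIF2alpha, slows translation and favours production of ATF4, which switches on genes for amino acid supply and, with CHOP (Ddit3), stress targets. Kinases that sense lack of amino acids, viral RNA or haem deficiency feed into the same ATF4 arm. In the lung, surfactant-making alveolar type 2 cells, secretory airway cells and plasma cells carry a heavy load of secreted protein through the ER.

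All 8 arrays came from 1 slide, with the knockout arrays in row 2 and the wild-type arrays in row 1. Row on the slide and genotype thus cannot be told apart. In both groups the replicate number was also the column on the slide. Between 58.1% and 65.3% of spots per array were well above background, 58.1% to 61.57% on knockout arrays and 61.55% to 65.3% on wild-type arrays. The 75th percentile of processed signal ran from 576 to 660 on knockout arrays and from 646 to 753 on wild-type arrays. The knockout arrays thus tended to be dimmer before scaling. Ggps1 itself measured 1.32, 1.24, 1.22 and 1.24 in knockout lungs, against 1.26, 1.34, 1.26 and 1.40 in wild-type lungs, a difference of -0.060 ± 0.068 (SE, limma adjusted p = 0.613). The groups overlapped, and since the deleted part of the gene is not known, the probe gives no check of the genotype. The lung's own marker genes were high in every sample, with Sftpc of alveolar type 2 cells between 8.92 and 9.29 and Scgb1a1 of club cells between 8.93 and 9.22. Levels are log2 processed signal minus that of each array's 75th percentile, differences are knockout minus wild-type on that scale, and p-values come from limma over all genes tested with Benjamini-Hochberg adjustment at a threshold of 0.05. The p-values weigh each difference against the spread among 4 mice per group, which limma moderates over all genes tested. The small number of mice limits the precision of the p-values.

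None of the 38 genes passed the threshold in knockout against wild-type lungs. Over all genes tested, 15 passed, which is 0.0613%, 8 of them higher and 7 lower in knockout lungs. The lowest adjusted p among the 38 was 0.0790, for Pdia3. At an unadjusted p under 0.05, 3 of the 38 were higher (Herpud1, Nupr1 and Asns), where 10.2% of all genes tested were, and 4 were lower (Pdia3, Calr, Sdf2l1 and Edem1), where 13.4% were. The groups did not overlap for 2 genes that were higher in knockout lungs (Herpud1 and Nupr1) and for 4 that were lower (Pdia3, Calr, Sdf2l1 and Edem1), against 6.10% and 9.21% of all genes tested. The shares among the 38 lay close to those of all genes.

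The differences were small, and 2 of the 5 roles leaned to one side in both count and median. Of the 14 chaperones and folding enzymes, 1 was higher and 13 were lower in knockout lungs, with a median difference of -0.12, and of the 7 amino acid genes, 6 were higher and 1 was lower, with a median of 0.24. The median over all genes tested was -0.027, with 45.7% of genes higher. Degradation factors (2 higher, 4 lower) had a median of -0.025. The median was 0.034 for sensors and transcription factors (4 higher, 1 lower) and 0.044 for ATF4 and CHOP stress targets (3 higher, 3 lower). These 3 medians lay near 0 and had no steady sign: with 1 lung left out they ran between -0.042 and 0.0011, -0.018 and 0.085, and -0.027 and 0.13. They were above 0 for degradation factors without knockout replicate 4 and below 0 for sensors and stress targets without knockout replicate 3, while stress targets reached 0.13 without wild-type replicate 4. Sensors and stress targets had medians of -0.021 and -0.011 when arrays were centred on their median. Set together, the 20 chaperones and degradation factors had 3 higher and 17 lower members (median -0.084), and the 13 stress targets and amino acid genes had 9 higher and 4 lower members (median 0.23). Counts of direction depended on the scaling. After quantile normalization 22 of the 38 were higher and 16 lower, in place of 16 and 22, while 46.7% of all genes were higher. The chaperones then stood at 4 higher and 10 lower (median -0.068) and the amino acid genes at 7 higher and 0 lower (median 0.25). Without knockout replicate 3, the chaperones were 5 higher and 9 lower.

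**Figure D1:**
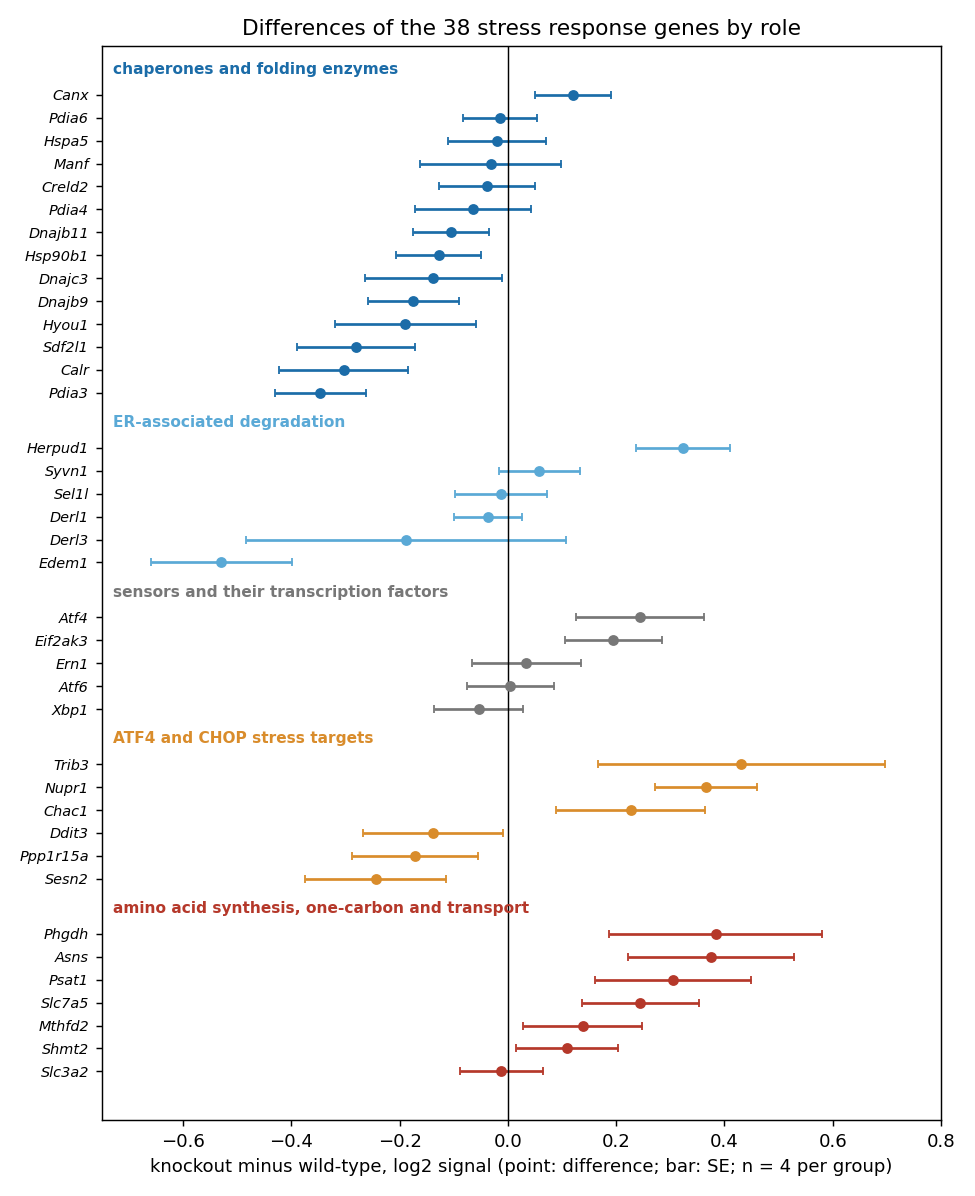
Difference of each of the 38 genes between knockout and wild-type lungs on the log2 scale, with its SE (n = 4 mice per group), ordered by size within 5 roles. Folding enzymes lie mostly left of 0 and amino acid genes mostly right of it, while Herpud1 (0.32) and Edem1 (-0.53), both degradation factors, lie at opposite ends.

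Some promoters of these genes carry a recognition element of 1 arm or the other, and most carry neither as searched. The stretches that hold the elements are shown because the differences were set against these elements. RefSeq promoters on GRCm38.p6, each from 250 bases before to 50 after the annotated start, were found for 33 of the 38 genes, and Atf6, Derl1, Hyou1, Manf and Slc7a5 had no entry. Searched on both strands, the ER stress element bound by ATF6 with NF-Y (CCAAT and then CCACG with a gap of 9 bases) stood in 9 of the 33, or 27.3%, against 37 of 27025 genes in the promoter table, or 0.137%. It was in 7 of 12 chaperones (Hspa5, Hsp90b1, Pdia6, Calr, Canx, Dnajc3 and Creld2) and 2 of 5 degradation factors (Syvn1 and Derl3), and in 0 of 4 sensors, 0 of 6 stress targets and 0 of 6 amino acid genes. In Hspa5 it was preceded by TGACGTG, an element bound by XBP1 and ATF6 that stood in 1 of the 33 and in 2.22% of all promoters. The capitals mark these elements, in either orientation, and the strand is that of the gene.
Hspa5, chr2:34771921-34772055, plus strand: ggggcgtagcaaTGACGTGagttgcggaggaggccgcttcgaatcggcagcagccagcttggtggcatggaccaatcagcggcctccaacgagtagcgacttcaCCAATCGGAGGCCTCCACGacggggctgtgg
Hsp90b1, chr10:86705521-86705668, minus strand: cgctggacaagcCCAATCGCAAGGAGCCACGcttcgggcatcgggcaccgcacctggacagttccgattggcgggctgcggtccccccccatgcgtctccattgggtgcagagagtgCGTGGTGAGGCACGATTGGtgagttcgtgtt
Calr, chr8:84847063-84847105, minus strand: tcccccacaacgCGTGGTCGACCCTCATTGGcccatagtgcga
Canx, chr11:50325788-50325830, minus strand: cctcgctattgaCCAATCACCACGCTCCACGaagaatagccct
Pdia6, chr12:17266479-17266521, plus strand: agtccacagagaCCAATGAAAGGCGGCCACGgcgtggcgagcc
Derl3, chr10:75893230-75893272, plus strand: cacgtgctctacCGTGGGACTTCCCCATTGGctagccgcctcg

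The element of the other arm, to which ATF4 binds with a C/EBP partner, was searched as TGATGNAA, whose reverse complement includes TTGCATCA. It stood in 5 of the 33 promoters (15.2%), those of Chac1, Trib3, Nupr1, Herpud1 and Asns, against 1219 of 27025 genes (4.51%). The TTGCATCA spelling was in 3 of them, Chac1, Nupr1 and Herpud1, against 1.03% of all promoters. The stretches are shown because Herpud1 alone held the element among the 5 degradation factors with a promoter entry. Other forms of the ER stress element were not searched, in Herpud1 or elsewhere. A match is a description of the sequence and not a measured binding site. Trib3 holds its copy within the 50 bases after the start, which are not printed. Capitals mark the element.
Chac1, chr2:119351037-119351068, plus strand: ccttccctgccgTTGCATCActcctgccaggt
Nupr1, chr7:126625561-126625592, minus strand: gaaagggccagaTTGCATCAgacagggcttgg
Herpud1, chr8:94386305-94386336, plus strand: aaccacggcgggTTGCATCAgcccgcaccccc
Asns, chr6:7693213-7693244, minus strand: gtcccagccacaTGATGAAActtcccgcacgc

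Among the chaperones, Pdia3, a disulfide isomerase that works with calreticulin and calnexin on glycoproteins, had the largest difference. It measured 3.17, 3.38, 3.37 and 3.24 in knockout lungs, against 3.5, 3.68, 3.73 and 3.62 in wild-type lungs. Every knockout lung lay below every wild-type lung, with a difference of -0.35 ± 0.084 (limma adjusted p = 0.0790), which is 1.27-fold higher in wild-type. Calr, the calcium-binding lectin chaperone calreticulin, measured 5.42, 5.52, 5.09 and 5.28 in knockout lungs and 5.53, 5.59, 5.86 and 5.55 in wild-type lungs. The groups again did not overlap, although the closest pair, at 5.52 and 5.53, was nearly level, and the difference was -0.30 ± 0.12 (limma adjusted p = 0.180). Sdf2l1, which keeps the chaperone BiP in its cycle, measured 1.98, 2.02, 1.89 and 2.10 in knockout lungs and 2.16, 2.27, 2.55 and 2.12 in wild-type lungs. These groups also stood apart, by less than their own spread, with a difference of -0.28 ± 0.11 (limma adjusted p = 0.178). After quantile normalization the differences of Pdia3, Calr and Sdf2l1 were -0.30, -0.26 and -0.24.

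Hspa5, which encodes BiP, the main ER chaperone and the usual read-out of the unfolded protein response differed little. It measured 6.72, 6.74, 6.49 and 6.74 in knockout lungs, against 6.57, 6.74, 6.64 and 6.81 in wild-type lungs. The groups overlapped throughout, and knockout replicate 3 was the lowest of the 8. The difference was -0.020 ± 0.090 (limma adjusted p = 0.916), and its sign turned with array weights. Dnajb9 (ERdj4), a BiP co-chaperone induced through XBP1, measured 2.38, 2.35, 2.29 and 2.57 in knockout lungs and 2.48, 2.63, 2.56 and 2.61 in wild-type lungs. Knockout replicate 4 reached into the wild-type range and the other knockout lungs lay below it (-0.17 ± 0.084, limma adjusted p = 0.249).

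The other 9 chaperones and folding enzymes lay between -0.19 and 0.12. Canx, the membrane lectin calnexin, was the member of this role that was higher in knockout lungs, at 5.27 ± 0.049 against 5.15 ± 0.075 in wild-type lungs (SD, n = 4 each). Hsp90b1 (GRP94), the ER member of the HSP90 family, averaged 6.01 ± 0.12 in knockout lungs and 6.14 ± 0.036 in wild-type lungs. Hyou1 (GRP170), a nucleotide exchange factor of BiP, averaged -2.70 ± 0.22 in knockout lungs and -2.51 ± 0.15 in wild-type lungs. The disulfide isomerases Pdia4 and Pdia6 differed by -0.064 ± 0.11 and -0.014 ± 0.069. Another Pdia6 probe measured 1.84, 1.89, 1.48 and 1.75 in knockout lungs and 1.94, 2.05, 2.14 and 2.11 in wild-type lungs. On that probe the groups did not overlap (-0.32 ± 0.11, limma adjusted p over all probes = 0.136), so the probes of Pdia6 disagreed, and with both averaged the difference was -0.17. The co-chaperones Dnajb11 and Dnajc3 (p58IPK) differed by -0.11 ± 0.070 and -0.14 ± 0.13. Another Dnajb11 probe, with a very low signal, gave -0.97 ± 0.49, which took the mean of its probes to -0.54, and without knockout replicate 1 Dnajc3 was at -0.019. The secreted stress protein Manf differed by -0.032 ± 0.13 and the disulfide isomerase Creld2 by -0.039 ± 0.089. On the probe used, Pdia6 turned, as did Manf and Creld2, to the other side of 0, by 0.032 or less, after quantile normalization. The lowest adjusted p among these 9 was that of Canx, at 0.323.

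The degradation factors held both the largest difference downwards and one of the larger ones upwards. Edem1, which directs misfolded glycoproteins out of the folding cycle towards degradation, measured 1.99, 2.13, 1.7 and 1.76 in knockout lungs, against 2.24, 2.64, 2.48 and 2.33 in wild-type lungs. All 4 knockout lungs were below all 4 wild-type lungs, with a difference of -0.53 ± 0.13 (limma adjusted p = 0.0796), or 1.44-fold higher in wild-type. Edem1 passed the threshold when dim probes were not filtered, at an adjusted p of 0.0494, a fit that called 3517 of 36153 genes. Herpud1, a membrane scaffold of the retrotranslocation complex and a target of both ATF4 and ATF6, measured 4.5, 4.37, 4.62 and 4.52 in knockout lungs, against 4.11, 4.25, 4.07 and 4.29 in wild-type lungs. Here every knockout lung was above every wild-type lung, with a difference of 0.32 ± 0.087 (limma adjusted p = 0.0922), or 1.25-fold. After quantile normalization Edem1 was at -0.48 and Herpud1 at 0.39.

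Sel1l and Syvn1 (HRD1), which form the core ubiquitin ligase of the ER membrane, differed by -0.013 ± 0.085 and 0.058 ± 0.075. Derl1, a channel component of retrotranslocation, differed by -0.037 ± 0.063 on the probe used, at chr15:57701488-57701547 on build mm9. Another Derl1 probe, at chr15:57703097-57703156, measured 2.45, 2.62, 2.39 and 2.49 in knockout lungs, against 2.87, 3.13, 2.76 and 3.02 in wild-type lungs. On that probe the groups did not overlap (-0.46 ± 0.10, limma adjusted p over all probes = 0.0708), so the 2 probes of Derl1 disagreed. Derl3, its relative enriched in secretory and plasma cells, had the largest SD of the 38 genes among knockout lungs (0.55). It measured -1.10, -0.72, -1.24 and -0.02 in knockout lungs and -0.80, -0.25, -0.27 and -1.0 in wild-type lungs. Both groups spanned low and high values, with the highest lung a knockout and the difference at -0.19 ± 0.29 (limma adjusted p = 0.725).

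**Figure D2:**
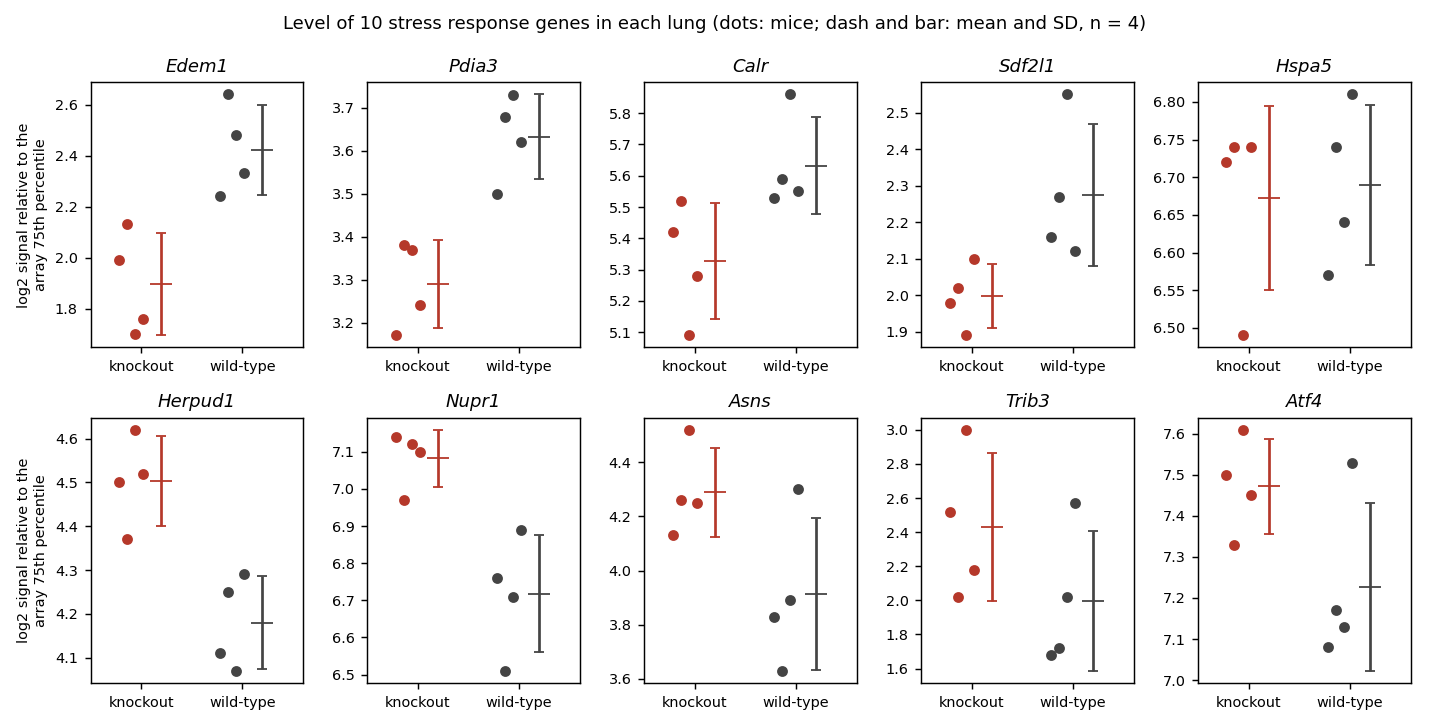
Level of 10 of the genes in each lung, in log2 relative signal, with knockout mice left of wild-type mice and the mean and SD beside them (n = 4 each). Edem1, Pdia3, Calr and Sdf2l1 are lower without overlap in knockout lungs, Herpud1 and Nupr1 are higher without overlap, and in Asns, Trib3 and Atf4 wild-type replicate 4 lies among the knockout lungs. Each panel has its own axis.

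Of the sensors, Atf6 and Ern1 differed by 0.0047 ± 0.080 and 0.034 ± 0.10, and both turned to the other side of 0 under median centring. Eif2ak3 (PERK) measured 1.11, 0.85, 1.22 and 1.08 in knockout lungs and 0.91, 0.85, 0.84 and 0.88 in wild-type lungs. Knockout replicates 1, 3 and 4 lay above all wild-type lungs and replicate 2 did not (0.19 ± 0.090, limma adjusted p = 0.233). Xbp1 measured 6.62, 6.79, 6.68 and 6.78 in knockout lungs and 6.74, 6.86, 6.63 and 6.85 in wild-type lungs. The groups overlapped, with a difference of -0.054 ± 0.082 (limma adjusted p = 0.715). Its 1 probe gives a value for the gene and does not tell the spliced form from the unspliced one.

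Atf4 measured 7.5, 7.33, 7.61 and 7.45 in knockout lungs, against 7.08, 7.17, 7.13 and 7.53 in wild-type lungs. All knockout lungs lay above wild-type replicates 1, 2 and 3, but wild-type replicate 4 was the second highest of the 8 (0.24 ± 0.12, limma adjusted p = 0.251). Another Atf4 probe, with a lower signal, gave 0.049 ± 0.14, so the difference rests on 1 of the 2 probes. ATF4 is controlled mainly at translation, which an mRNA array does not measure.

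Among the stress targets, Nupr1, a small chromatin-associated protein induced by several stresses, had groups that did not overlap. It measured 7.14, 6.97, 7.12 and 7.10 in knockout lungs, against 6.76, 6.51, 6.71 and 6.89 in wild-type lungs. The difference was 0.37 ± 0.095 (limma adjusted p = 0.0866), or 1.29-fold. Trib3, a pseudokinase that feeds back on ATF4 and CHOP, had the largest difference upwards but also a wide spread, at 2.52, 2.02, 3.0 and 2.18 in knockout lungs and 1.68, 1.72, 2.02 and 2.57 in wild-type lungs. Wild-type replicate 4 was above all knockout lungs but replicate 3, and the difference was 0.43 ± 0.26 (limma adjusted p = 0.348). Chac1, which degrades glutathione, measured 1.81, 1.48, 1.99 and 1.58 in knockout lungs and 1.42, 1.34, 1.46 and 1.73 in wild-type lungs. The order of the lungs was much like that of Trib3, with a difference of 0.23 ± 0.14 (limma adjusted p = 0.343).

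The other stress targets lay below 0. Ddit3, which encodes CHOP, the transcription factor of prolonged ER stress, measured 1.69, 1.61, 1.95 and 1.44 in knockout lungs and 1.7, 1.73, 1.75 and 2.05 in wild-type lungs. The groups overlapped, with the highest lung a wild-type one, and the difference was -0.14 ± 0.13 (limma adjusted p = 0.536). Sesn2, a leucine sensor that restrains mTORC1, measured 1.74, 1.63, 1.48 and 1.66 in knockout lungs and 1.68, 2.09, 1.64 and 2.07 in wild-type lungs. Wild-type replicates 2 and 4 stood well above the other lungs, and the difference was -0.24 ± 0.13 (limma adjusted p = 0.291). Ppp1r15a (GADD34), which directs the phosphatase that reverses eIF2alpha phosphorylation, averaged 4.17 ± 0.11 in knockout lungs and 4.34 ± 0.20 in wild-type lungs (SD, n = 4 each), with a difference of -0.17 ± 0.12 (limma adjusted p = 0.392). Of the 6 stress targets, 3 had the C/EBP-ATF element in the promoter stretch searched, and these were the 3 that were higher. Copies of the element outside that stretch were not searched for. Among the 335 other genes tested with the element, 157 were higher and 178 lower. A link between the element and the direction was not tested.

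The amino acid genes were higher in knockout lungs with 1 exception. Asns, which makes asparagine and is a standard ATF4 target, measured 4.13, 4.26, 4.52 and 4.25 in knockout lungs, against 3.83, 3.63, 3.89 and 4.30 in wild-type lungs. Wild-type replicate 4 was the second highest lung and all other wild-type lungs lay below every knockout lung (0.37 ± 0.15, limma adjusted p = 0.193, 1.30-fold). Phgdh, which commits glucose carbon to serine, measured 2.40, 2.16, 2.60 and 2.33 in knockout lungs and 2.03, 1.42, 2.28 and 2.24 in wild-type lungs. Psat1, the next enzyme of serine synthesis, measured 2.37, 2.17, 2.14 and 2.32 in knockout lungs and 1.58, 1.86, 2.15 and 2.18 in wild-type lungs. In both genes the wild-type lungs were the more scattered, with 1 or 2 low ones each, and the differences were 0.38 ± 0.20 and 0.31 ± 0.14 (limma adjusted p = 0.274 and 0.242).

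A second probe gave 0.41 for Phgdh and 0.33 for Psat1, close to the first. Slc7a5, the light chain of the LAT1 transporter of large neutral amino acids, measured 0.12, -0.08, 0.04 and 0.29 in knockout lungs and -0.31, -0.02, -0.24 and -0.04 in wild-type lungs. The ranges overlapped at 1 knockout lung (0.24 ± 0.11, limma adjusted p = 0.220), and another Slc7a5 probe went the other way, at -0.16 ± 0.11. Its heavy chain partner Slc3a2 averaged 6.23 ± 0.069 in knockout lungs and 6.25 ± 0.092 in wild-type lungs (SD, n = 4 each) and turned to the other side of 0 after quantile normalization. The mitochondrial one-carbon enzymes Shmt2 and Mthfd2 differed by 0.11 ± 0.094 and 0.14 ± 0.11. With all probes of a gene averaged, the median over the 7 amino acid genes was 0.14.

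Across the mice, the ATF4-linked genes tended to be high or low in the same lungs. The mean of the 13 stress targets and amino acid genes, after each gene was centred on its own mean over the 8 lungs, was 0.14, -0.03, 0.17 and 0.03 in knockout lungs and -0.20, -0.17, -0.09 and 0.15 in wild-type lungs. Wild-type replicate 4 thus stood with the highest knockout lungs, and knockout replicate 2 was the lowest of its group. The same mean over the 20 chaperones and degradation factors was -0.08, -0.02, -0.13 and 0.02 in knockout lungs and -0.02, 0.10, 0.10 and 0.03 in wild-type lungs. The ranges overlapped, with knockout replicate 3 the lowest of the folding genes and the highest of the ATF4-linked genes.

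**Figure D3:**
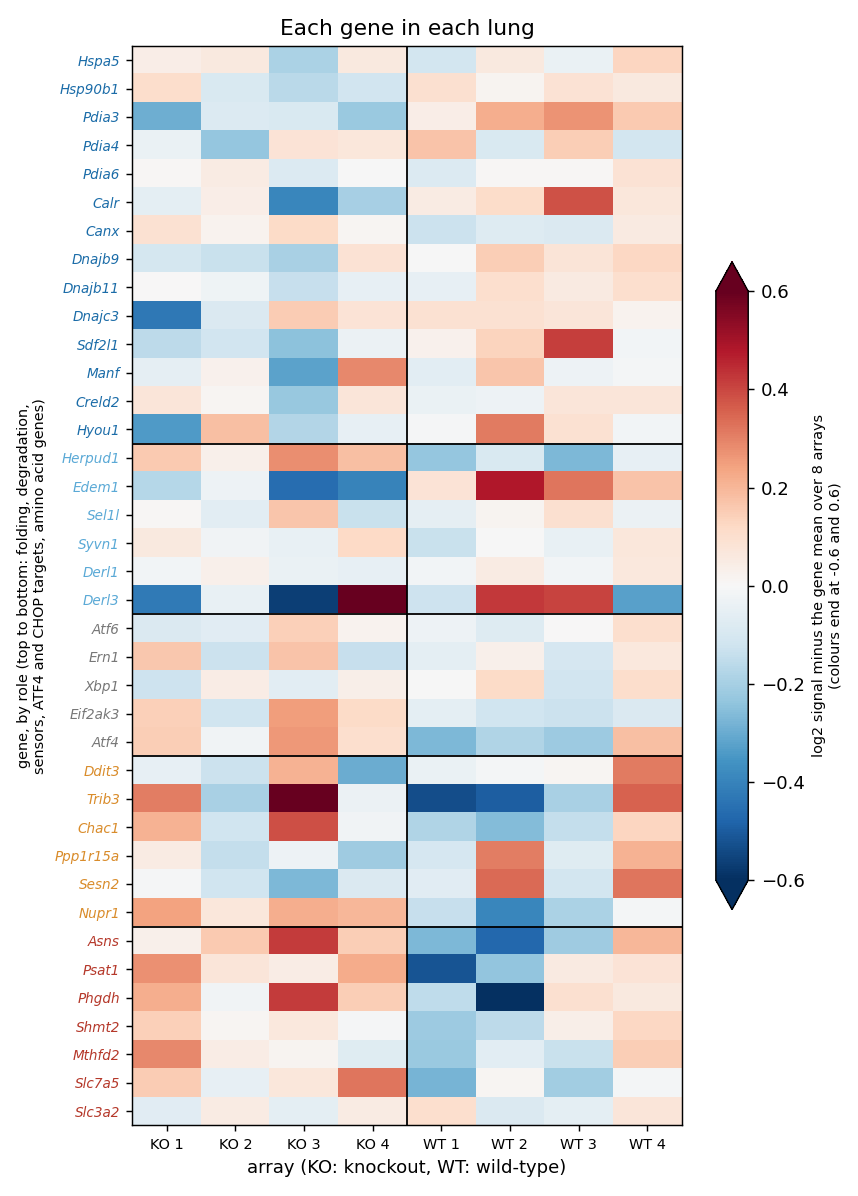
Log2 signal of each of the 38 genes in each of the 8 lungs, minus the gene's mean over all 8, with knockout lungs left of the vertical line and wild-type lungs right of it. In the lower blocks most genes are high in knockout replicates 1 and 3 and wild-type replicate 4 and low in wild-type replicates 1 and 2, while Derl3 swings widely in the upper blocks.

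Atf4 was compared with the 13 stress targets and amino acid genes, and Hspa5 with the 19 other chaperones and degradation factors, which gave 32 correlations over the 8 lungs. This was not the comparison planned, which was with the means of the roles and without p-values. The permutations ran over all 8 lungs regardless of genotype, so a difference shared between the groups can raise r and lower its p. Trib3 was most like Atf4, with Pearson r = 0.918 (exact permutation p = 0.00151, adjusted over the 32 p = 0.0401) and Spearman coefficient = 0.976 (exact permutation p = 0.000397, adjusted p = 0.0127). Chac1 followed with r = 0.890 (exact permutation p = 0.00387, adjusted p = 0.0413) and Spearman coefficient = 0.905 (exact permutation p = 0.00456, adjusted p = 0.0730), and Asns with r = 0.878 (exact permutation p = 0.00573, adjusted p = 0.0458) and Spearman coefficient = 0.833 (exact permutation p = 0.0154, adjusted p = 0.133). The adjusted p for r was above 0.05 in 5 of 12 alternatives for Trib3, 7 of 12 for Chac1 and 9 of 12 for Asns, most of them with 1 lung left out. After normexp background correction on all 8 lungs it was 0.0506 for Chac1 and 0.0696 for Asns. All correlations with Atf4 used its brighter probe, and none of the 12 alternatives used the other one. Without the 2 lungs farthest from the median of Atf4, wild-type replicates 1 and 3, r was 0.956 for Trib3, 0.942 for Chac1 and 0.874 for Asns. Taken as deviations from each group's mean, r was 0.896, 0.841 and 0.784, so the likeness was also present within the genotypes, where 4 lungs each are too few for a correlation of their own. Sesn2 and Ppp1r15a, listed as ATF4 or CHOP targets as well, had r = -0.121 and 0.0140 with Atf4 (exact permutation p = 0.743 and 0.972), and 0.426 and 0.528 in deviations from the group means.

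Ddit3 correlated with Atf4 at r = 0.319 over the 8 lungs (exact permutation p = 0.440, Spearman coefficient = 0.286, exact permutation p = 0.501) and at 0.809 in deviations from the group means. The closest to Hspa5 was Pdia6 (r = 0.913, exact permutation p = 0.00251, adjusted p = 0.0401, Spearman coefficient = 0.762, exact permutation p = 0.0368, adjusted p = 0.133). Without knockout replicate 3 and wild-type replicate 1, the lungs farthest from the median of Hspa5, r was 0.736, and after quantile normalization it was 0.351, so this likeness depended on the scaling; its adjusted p was above 0.05 in 10 of 12 alternatives. After quantile normalization, Trib3, Chac1 and Asns correlated with Atf4 at 0.977, 0.965 and 0.896. Values of 1 array share its overall signal and background, which can add to any of these correlations.

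**Figure D4:**
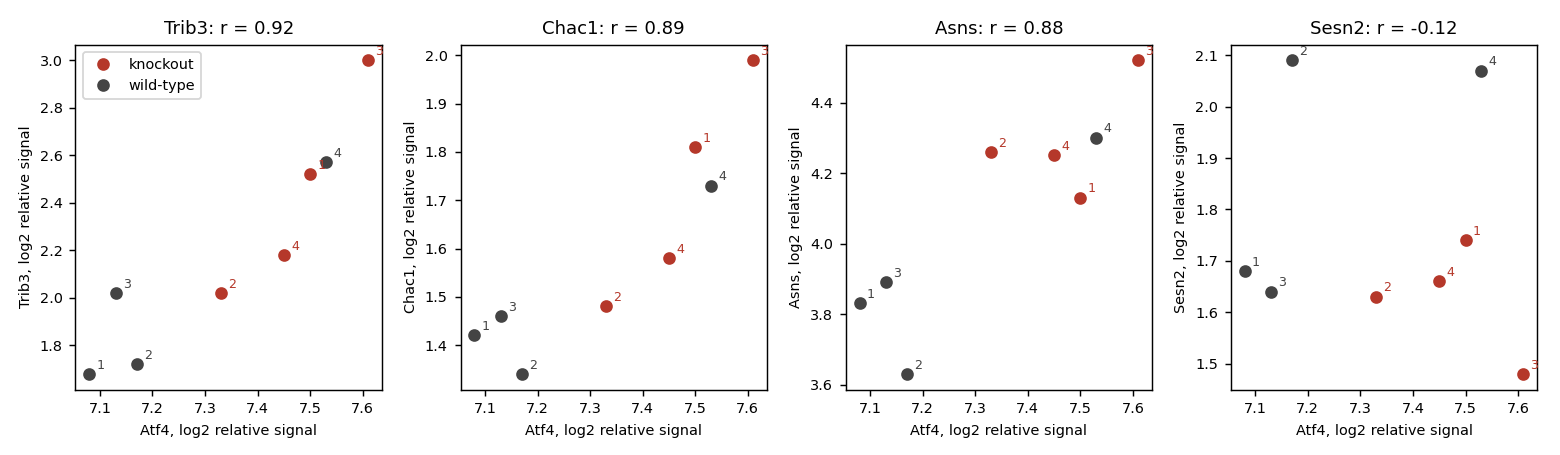
Log2 relative signal of Trib3, Chac1, Asns and Sesn2 against that of Atf4 in the 8 lungs, with knockout and wild-type mice in separate colours and their replicate numbers beside the points. Trib3, Chac1 and Asns climb with Atf4 (Pearson r = 0.92, 0.89 and 0.88), with wild-type replicate 4 among the knockout lungs, while Sesn2 does not (r = -0.12).

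Grouped by promoter element, the 5 genes with the C/EBP-ATF element (Chac1, Herpud1, Nupr1, Asns and Trib3) were all higher in knockout lungs, between 0.23 and 0.43, with a median of 0.37 in the main setting and 0.39 after quantile normalization. The 335 other genes tested that hold the element had 157 higher and 178 lower, with a median of -0.024. The 9 genes with the ER stress element had 2 higher and 7 lower members (median -0.039), which became 4 and 5 after quantile normalization. Without knockout replicate 3 they were 5 higher and 4 lower (median 0.0088), and with the mean of a gene's probes the median was -0.13. The 11 other genes tested with that element had 7 higher and 4 lower (median 0.18). The 19 genes with neither had a median of -0.054 and ran from Edem1 at -0.53 to Phgdh at 0.38.

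**Figure D5:**
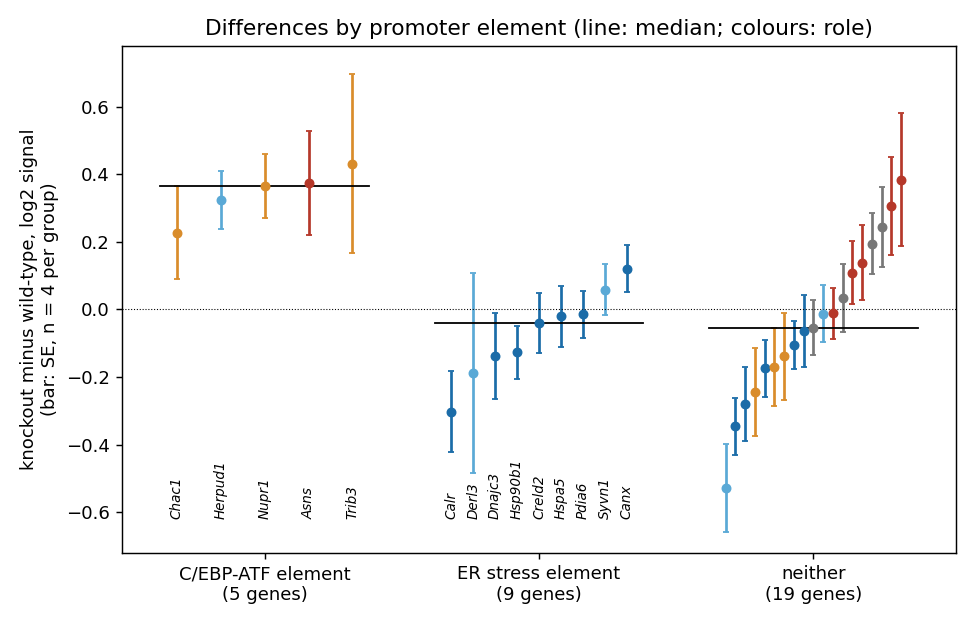
Difference of each gene with a promoter in the RefSeq table, with its SE (n = 4 per group), for the 5 genes with the C/EBP-ATF element, the 9 with the ER stress element and the 19 with neither. Colours mark the same roles as in the plot of differences by role. The 5 genes at the left all lie above 0 and the 9 in the middle lie on both sides of it.

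None of the 129 genes tested from 7 further lists of the same pathways passed the threshold. Among 22 other folding and glycosylation genes, 9 were higher and 13 lower in knockout lungs (median -0.11). Erp44, which retrieves ER proteins from the Golgi, was higher without overlap (0.30 ± 0.071, limma adjusted p = 0.0768), as was the BiP exchange factor Sil1 (0.23 ± 0.073). Pdia5 (-0.38 ± 0.10) and Ero1l, the oxidase that recharges disulfide isomerases (-0.60 ± 0.17), were lower without overlap. In all, 2 of the 22 were higher and 6 lower without overlap, against 6.10% and 9.21% of all genes tested. Among 14 other degradation genes 6 were higher and 8 lower (median -0.0057). The lectin Erlec1 (0.49 ± 0.11) and the segregase Vcp (0.29 ± 0.075) were higher without overlap, the lectin Os9 was lower without overlap (-0.23 ± 0.067), and the ubiquitin ligase Rnf5 differed by -0.16 ± 0.075.

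The 24 translocation and export genes split 12 and 12 (median 0.017), with Serp1 at -0.54 ± 0.18, Sec63 at -0.20 ± 0.079, Surf4 at 0.20 ± 0.081 and Srpr at -0.15 ± 0.074. Among 17 other sensors, kinases and membrane-bound transcription factors, 7 were higher and 10 lower (median -0.11). Atf6b, the close relative of Atf6, measured 0.06, 0.17, 0.02 and 0.02 in knockout lungs, against 0.68, 0.60, 0.57 and 0.48 in wild-type lungs. No other gene of the 7 lists had as low a p (-0.51 ± 0.074, limma adjusted p = 0.0566). Eif2ak1, the eIF2alpha kinase that senses haem, measured -0.73, -0.61, -0.74 and -0.78 in knockout lungs and -0.30, -0.39, -0.40 and -0.34 in wild-type lungs, also without overlap (-0.36 ± 0.069, limma adjusted p = 0.0628). The membrane-bound factors Creb3l1 (0.39 ± 0.11) and Creb3l3 (-0.38 ± 0.10) went opposite ways. Of these 17 genes, 1 was higher and 5 were lower without overlap, against 6.10% and 9.21% of all genes tested.

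Among 17 other ATF4 stress targets, 8 were higher and 9 lower (median -0.090). Atf3, an early stress factor, measured 1.51, 1.83, 1.88 and 1.05 in knockout lungs, against 2.10, 2.41, 2.41 and 2.57 in wild-type lungs. It was lower without overlap (-0.81 ± 0.19, limma adjusted p = 0.0789), opposite in direction to Trib3, Chac1 and Asns. Vldlr, a lipoprotein receptor, measured 2.29, 1.09, 2.14 and 2.25 in knockout lungs and 0.87, 0.51, 1.08 and 1.30 in wild-type lungs. Knockout replicates 1, 3 and 4 were well above the wild-type lungs (1.0 ± 0.29, limma adjusted p = 0.106). Ddit4, an mTORC1 inhibitor, differed by 0.48 ± 0.18 and Eif4ebp1, a translation repressor, by -0.25 ± 0.092.

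The 17 other serine, one-carbon and proline enzymes and amino acid transporters had 10 higher and 7 lower (median 0.12). The glycine transporter Slc6a9 measured 4.28, 4.13, 4.57 and 4.36 in knockout lungs, against 3.91, 3.72, 3.95 and 3.99 in wild-type lungs. It was higher without overlap (0.45 ± 0.11, limma adjusted p = 0.0804), as was Shmt1, the cytosolic relative of Shmt2 (0.39 ± 0.12). The transporters Slc7a3 and Slc1a5 differed by 0.58 ± 0.23 and 0.22 ± 0.095. The 18 cytosolic aminoacyl-tRNA synthetases, also ATF4-linked as a class, had 10 higher and 8 lower (median 0.0032), with Iars at -0.26 ± 0.097, Farsb at -0.23 ± 0.097, Gars at 0.23 ± 0.11 and Rars at -0.26 ± 0.12.

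Markers of cell types that a whole lung holds also differed between the groups, and in such samples fewer cells of a type and less RNA per cell cannot be told apart. Beside the lower folding genes, all 7 measured plasma cell markers were lower in knockout lungs (median -0.42), with a summed level of 3.75 to 4.74 in knockout lungs and 4.18 to 4.79 in wild-type lungs. Sums here are the log2 of the markers' added relative signals. All 9 monocyte and interstitial macrophage markers were lower (median -0.76), with a summed level of 6.81 to 7.40 in knockout lungs and 7.63 to 8.12 in wild-type lungs. These sums did not overlap between the groups. B and T lymphocyte markers were lower in 10 of 10 (median -0.34), neutrophil markers in 7 of 9 (median -0.31), alveolar macrophage markers in 6 of 10 (median -0.14), endothelial markers in 6 of 10 (median -0.11) and erythroid markers in 6 of 6 (median -0.64). Alveolar type 1 markers were lower in 10 of 10 (8.20 to 8.96 in knockout and 8.61 to 9.01 in wild-type lungs) and alveolar type 2 markers in 7 of 10 (10.02 to 10.49 in knockout and 10.17 to 10.43 in wild-type lungs).

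Beside the higher ATF4-linked genes, all 12 markers of club and other secretory cells were higher in knockout lungs (median 1.12, summed level 10.24 to 10.998 in knockout and 9.73 to 10.2 in wild-type lungs), and so were all 10 ciliated cell markers (median 0.63, 7.12 to 7.24 and 6.88 to 7.10). Neither sum overlapped between the groups. The centred mean of the club and secretory markers did overlap, at 0.75, 1.46, -1.08 and 1.91 in knockout lungs and -1.29, 0.13, 0.49 and -2.38 in wild-type lungs. It was lowest of its group in knockout replicate 3 and wild-type replicate 4, where the mean of the ATF4-linked genes was highest of its group (0.17 and 0.15). Cardiac muscle markers were higher in 11 of 12 (median 1.51, 6.43 to 9.17 and 4.44 to 8.74) and fat markers in 8 of 9 (median 2.29, 6.43 to 8.01 and 6.02 to 7.33), and smooth muscle markers in 9 of 10 (median 0.55). The cardiac marker mean was high in knockout replicates 2 and 4 (3.63 and 3.48) and wild-type replicate 2 (3.43), while the remaining lungs ran between -0.48 and 1.84. No marker of these lists passed the threshold. Every marker counted was well above background on 3 or more arrays of either group, so a marker could enter through the group where it is high. The fat marker Lep, for example, ran from -6.87 to -1.14 in knockout lungs and from -7.48 to -6.79 in wild-type lungs. The part of these cell types in the differences of the 38 genes was not tested. Without the 3 lungs high in cardiac markers, a choice made after seeing the data, the median was 0.27 for the 13 stress targets and amino acid genes and -0.11 for the 20 chaperones and degradation factors. That left 9 higher and 4 lower among the 13, and 4 higher and 16 lower among the 20.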

How the data were processed

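Lung RNA of 8 mice was measured with 1 array each, and groups were taken from the sample titles. Per the file headers, the deposited scanner files give spot intensities read with Agilent Feature Extraction 10.7.1.1, including a background-subtracted processed signal, and probe positions on mm9. The deposited value table of the authors holds log2 values that followed log2 processed signal on the scanner files (its scaling is not stated) and was used as an alternative.

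Control and outlier spots were dropped, spots of a probe averaged, and log2 processed signal set relative to each array's 75th percentile. Probes well above background on 3 or more of 4 arrays of a group were kept, with the probe of highest mean per gene, which left 24464 genes. The genotypes were compared two-sided by limma 3.58.1 (R 4.3.3; lmFit and eBayes) with a threshold of 0.05, in a script checked on simulated data. Members and lists were chosen with earlier results of these data known. Values per lung are given for Hspa5, Xbp1, Atf4, Ddit3, Asns and the 12 other members with the smallest p; up to 4 genes per pathway list with the smallest p are named, and other values shown were picked after they were seen. Promoters are RefSeq sequences on GRCm38.p6. Correlations used exact permutation of 8 samples (scipy 1.17.1). Alternatives changed scaling, background, filter, probe choice, variance model and samples. A search of protein sequences was not run.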

Additional observations from a re-analysis of the deposited data

Results flagged for a closer look

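Of the 76 groups of 4 lungs examined (38 genes in each genotype), 2 had a lung far from the rest by Dixon's criterion. Chance gives about 1 in 20, so such lungs were no more frequent than by chance. In Hspa5, knockout replicate 3 was lowest at 6.49, whereas the other knockout lungs lay between 6.72 and 6.74. In Ddit3, wild-type replicate 4 was highest at 2.05, whereas the other wild-type lungs lay between 1.7 and 1.75. These are the lungs in which Trib3, a gene picked here after its values were seen, was highest within each genotype. It measured 3.0 in knockout replicate 3 and 2.57 in wild-type replicate 4.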

How the results depend on the processing

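No gene of the 38 passed the threshold in the main fit or in any of 20 alternatives, except Edem1 without a filter on dim probes (1 of 38). Over all genes, 512 passed after normexp background correction, 3517 without the filter, 126 with the filter on all 8 arrays, 9 with the mean of a gene's probes, 417 with an intensity trend in the variance, 302 with array weights, and 1 to 19 with 1 lung left out. With the 3 lungs high in cardiac markers left out, chosen after seeing the data, 0 passed, while 1736 genes were higher and 2375 lower at an unadjusted p under 0.05. The slide as a block was not run, since there was 1 slide. Lungs of the same replicate number also shared a column of the slide. The correlation of deviations between lungs of the same number was 0.13, 0.47, 0.012 and -0.29. Lungs of unlike number were not compared in this way, so whether the numbers pair the lungs was not settled. The replicate block gave 46 genes and 0 of the 38.

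Of the 38 genes, 28 kept the sign of their difference in all 20 alternatives. Not all of these could turn a sign. The changes of filter, every probe on its own, the replicate block and the intensity trend left the differences of the 38 as in the main fit. The deposited value table was close to quantile normalization, with 22 higher and 16 lower in both. Medians moved under median centring (degradation factors -0.081, all 38 genes -0.073), with the mean of a gene's probes (degradation factors -0.10, chaperones and degradation factors together -0.15, amino acid genes 0.14) and without the 3 lungs (sensors 0.20). Signs turned as follows; the cause was not tested. Quantile normalization gave 0.011 for Pdia6, 0.032 for Manf, 0.0021 for Creld2, 0.0065 for Sel1l, 0.016 for Derl1 and 0.013 for Slc3a2. The deposited value table gave 0.0099 for Pdia6, 0.032 for Manf, 0.0028 for Creld2, 0.0067 for Sel1l, 0.016 for Derl1 and 0.013 for Slc3a2. Median centring gave -0.051 for Atf6 and -0.021 for Ern1, array weights -0.026 for Atf6 and 0.0020 for Hspa5, and leaving out the 3 lungs 0.083 for Sel1l.

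With 1 lung left out, the range was -0.061 to 0.040 for Hspa5, -0.11 to 0.0029 for Pdia4, -0.043 to 0.014 for Pdia6, -0.13 to 0.070 for Manf, -0.071 to 0.030 for Creld2, -0.070 to 0.030 for Sel1l, -0.041 to 0.040 for Atf6, -0.018 to 0.085 for Ern1 and -0.043 to 0.020 for Slc3a2. The correlations with Atf4, whose alternatives were also chosen after seeing the data, ranged over all alternatives from 0.89 to 0.98 (Trib3), 0.86 to 0.97 (Chac1) and 0.83 to 0.91 (Asns), with adjusted permutation p-values up to 0.138, 0.138 and 0.154.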
